A study of Mus musculus with 10 samples.

Results

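The genes for the proteins of the mitochondrial ribosome were compared between 5 control livers and 5 livers that had lost Dicer1, the enzyme that cuts microRNA precursors. Members were chosen by name. The platform annotation holds 78 symbols that start with Mrpl or Mrps and a digit, and 76 of these had a probe set assigned to that gene alone, out of 12366 genes on the arrays. The names put 47 members in the large subunit (Mrpl) and 29 in the small subunit (Mrps). Where a member had several probe sets, the brightest over the 10 arrays stood for it.

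The mutant mice carried floxed alleles of Dicer on both chromosomes together with an Afp-Cre transgene, which is active in fetal liver cells that give rise to hepatocytes and bile duct cells. Kupffer, stellate and endothelial cells do not arise from these cells. The controls are labelled only as control livers, without a stated genotype. All 10 mice were 28 days old, of mixed strain, and had been fasted for 5 hours, and each gave 1 array. The labels give no sex and no batch, and nothing in them says whether replicate numbers mark litters.

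Mitochondria keep a ribosome of their own, which translates the few messages of mitochondrial DNA, all of them for subunits of the respiratory chain and the ATP synthase. Its RNAs are made inside the organelle, but all of its proteins are encoded in the nucleus, translated in the cytosol and imported. Many of these proteins have a counterpart in the bacterial ribosome, and others were added in the course of mitochondrial evolution. Hepatocytes are rich in mitochondria, and urea synthesis, ketone body formation and gluconeogenesis all depend on them.

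Several of the members are printed here by the bases just before their transcription start. The sequences were taken from RefSeq on GRCm38.p6, where 67 of the 76 members had a promoter window that runs from 250 bases before to 50 bases after the start. The windows were searched on both strands for 4 short motifs: CCGGAAG (ETS family, which includes GABP), GCGCANGCG (NRF1), AAGATGGCG (YY1) and CACGTG (the E-box, which MYC and other factors bind). GABP, NRF1 and YY1 are known as activators of nuclear genes for mitochondrial proteins. Of the 67 members with a window, 25 had none of the 4 motifs in it. The first 5 sequences are members that fell, and the last is a member that did not. They are examples and do not show how often motifs occur in either kind of member. The rule for named genes, given below, did not take Mrpl43. Each line gives the 100 bases before the start, 5′ to 3′ on the strand of the gene, with motif matches on either strand in capitals.

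Mrpl34: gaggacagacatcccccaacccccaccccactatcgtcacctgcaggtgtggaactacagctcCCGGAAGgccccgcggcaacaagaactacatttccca
Mrps10: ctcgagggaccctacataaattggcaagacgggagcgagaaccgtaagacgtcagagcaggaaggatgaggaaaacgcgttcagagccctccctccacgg
Mrps27: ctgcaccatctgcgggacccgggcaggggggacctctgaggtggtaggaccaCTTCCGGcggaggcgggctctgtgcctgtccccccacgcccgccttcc
Mrpl57: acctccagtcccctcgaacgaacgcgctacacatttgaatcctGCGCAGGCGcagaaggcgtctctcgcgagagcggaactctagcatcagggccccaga
Mrpl43: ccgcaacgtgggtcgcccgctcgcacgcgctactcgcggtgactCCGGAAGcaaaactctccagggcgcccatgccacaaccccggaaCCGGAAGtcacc
Mrps31: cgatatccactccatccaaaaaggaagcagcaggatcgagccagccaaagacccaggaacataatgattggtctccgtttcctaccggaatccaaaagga

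These windows lie at chr8:71464826-71464925 (plus strand), chr17:47369097-47369196 (plus), chr13:99344686-99344785 (plus), chr14:57826139-57826238 (plus), chr19:45006443-45006542 (minus) and chr8:22411240-22411339 (plus). Mrpl34 has an ETS match that begins 37 bases before the start, Mrps27 has an ETS match at 48 bases and Mrpl43 has ETS matches at 56 and 12 bases. Mrpl57 has an NRF1 match at 57 bases. Mrps10 and Mrps31 have no match to the 4 motifs within these 100 bases, although Mrps10 was among the members that fell most. Over the full windows, the ETS letters were present for 25 of 67 members (37.3%), against 18.6% of the 10011 measured genes with a window and 8.86% of all 32851 windows in the table. The NRF1 letters were present for 15 members (22.4%), against 14.4% of measured genes and 6.25% of all windows. The YY1 letters were present for 8 members (11.9%), against 3.29% and 1.40%. The E-box was present for 5 members (7.46%), against 11.3% and 7.15%. Among members called lower in mutant liver, 18 of 42 with a window held the ETS letters, 8 the NRF1 letters, 6 the YY1 letters and 5 the E-box. Among the other 25 members with a window the counts were 7, 7, 2 and 0. A match of letters does not show that a factor binds. The part of these motifs in the fall was not tested.

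Dicer1 signal was lower in each of the 5 mutants, with log2 differences of -1.03 (SE 0.07) and -2.31 (SE 0.10) on its probe sets. Neither probe set has a stated position relative to the deleted exons. Mutant replicate 5 had Dicer1 values of 6.98 and 5.84, within the range of the remaining mutants on both, although it lay between the groups on component 1 of a principal component analysis of all genes (-9.50, against -31.8 to -21.0 for controls and 23.5 to 47.3 for the other mutants). Its values are therefore given beside the results it touches.

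Nearly all mitochondrial ribosomal protein genes had a lower mean in mutant liver. Of the 76 members, 74 had a mutant mean below the control mean, against 54.8% of all genes. Of the 76, 44 fell and 0 rose at an adjusted p under 0.05 by limma, against 11.5% of all genes called lower and 8.62% called higher. At an unadjusted p under 0.05 by limma, 64 members were lower and 0 were higher, against 2462 and 1848 of all 12366 genes. The median difference over the members, mutant minus control, was -0.43 on the log2 scale, and the middle of the distribution ran from -0.63 (25th percentile) to -0.27 (75th percentile). The median over all genes was -0.01. In 31 members every mutant lay below every control and in 0 every mutant lay above every control, against 6.99% and 6.17% of all genes. The members were chosen with earlier results of these data known, and no test was made over them as a group.

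**Figure D1:**
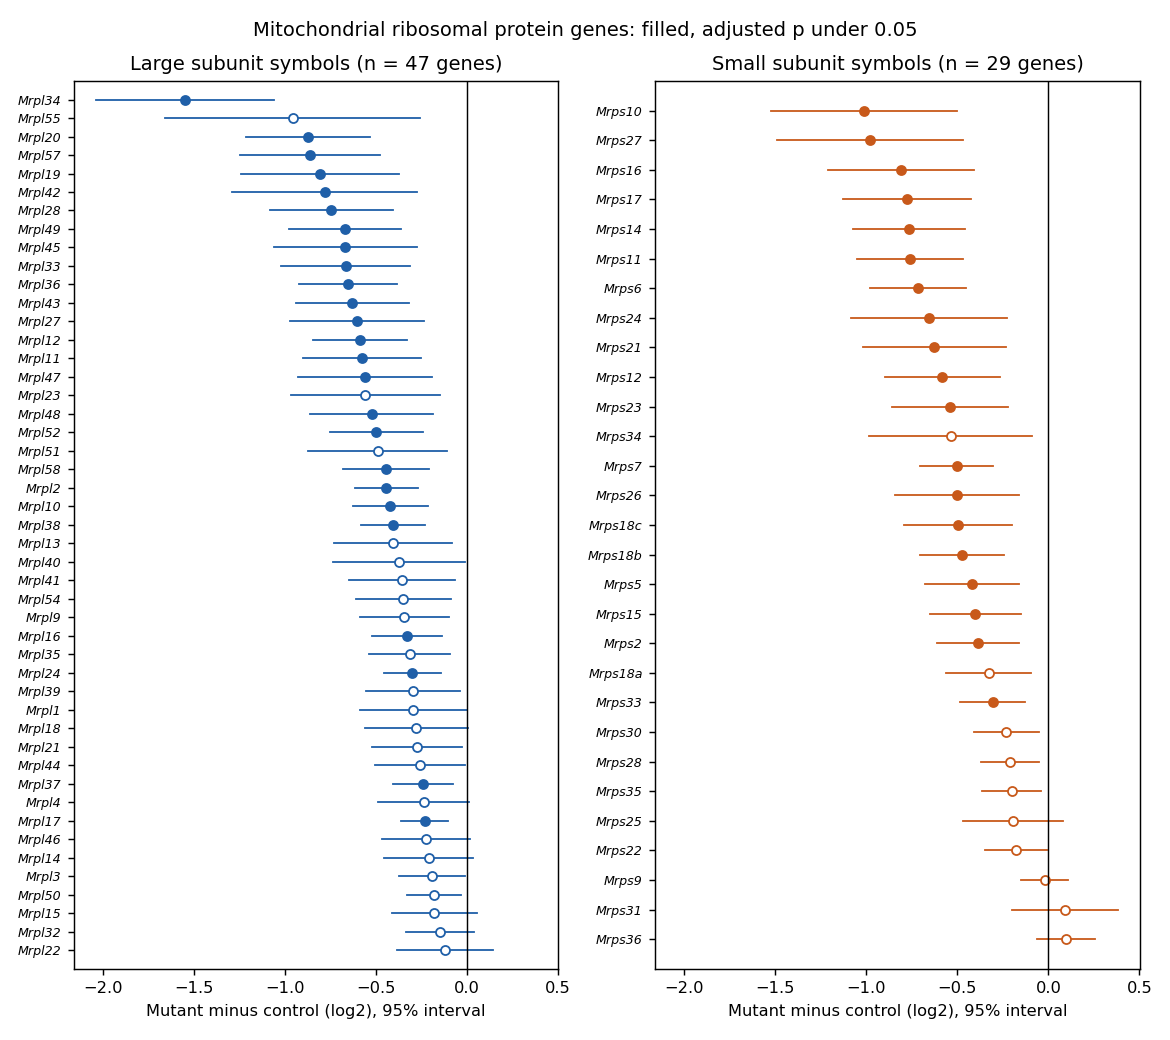
Difference between mutant and control (log2, horizontal axis) for each member, ordered within the large subunit (left, 47 genes) and small subunit (right, 29 genes); points are limma estimates, bars are 95% intervals, and filled points have an adjusted p under 0.05. The filled points, 25 on the left and 19 on the right, all lie below 0, and 2 genes, Mrps31 and Mrps36, have estimates above 0.

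The count of called members depended on the arrays used. Without mutant replicate 5 it was 63 of 76, when 17.5% of all genes were called lower and 11.1% higher, and the count called higher was again 0. It was 26 without control replicate 3 or mutant replicate 4, and 28 without control replicate 4 or mutant replicate 2. In these fits the share of all genes called lower was smaller too, at 6.18% to 6.92%. Of the 44 members called lower, 24 were called lower in all 10 of the fits that left out 1 array.

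In the large subunit all 47 members had lower means in mutants. Of these, 25 fell and 0 rose, with a median difference of -0.40 and a range from -1.55 to -0.12. The largest change of any member was that of Mrpl34, a small basic protein that in bacteria is embedded in the ribosomal RNA of the large subunit. Its log2 signal in the control livers was 9.33, 8.92, 9.31, 9.04 and 9.38, and in the mutants, in replicate order, 7.49, 7.19, 7.64, 7.46 and 8.46. All mutants lay below all controls, and mutant replicate 5 was the highest of them. Control livers averaged 9.20 ± 0.21 (SD, n = 5), with 7.65 ± 0.48 (SD, n = 5) among mutants, which is a fall of 1.55 (SE 0.22, adjusted p = 0.00601) or 2.92-fold. It was -1.75 without mutant replicate 5.

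Mrpl20 and Mrpl19, counterparts of bacterial proteins L20 and L19 that bind the large ribosomal RNA, also fell. Mrpl20 stood at 9.90, 9.80, 10.08, 9.91 and 9.93 in controls and at 9.13, 8.54, 9.16, 8.95 and 9.50 in mutants, so the groups did not overlap. Its difference was -0.87 (SE 0.15, adjusted p = 0.00862), which leaves 54.7% of the control signal. Mrpl19 fell by 0.80 (SE 0.19, adjusted p = 0.0218), and Mrpl57, a protein found only in mitochondrial ribosomes, fell by 0.86 (SE 0.17, adjusted p = 0.0118). For both, every mutant lay below every control.

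Mrpl34 and Mrpl20 were among the 6 large subunit members with the smallest p, and the others were Mrpl2, Mrpl36, Mrpl38 and Mrpl12. Mrpl2, the counterpart of the bacterial protein L2 near the site of peptide bond formation, gave 10.86, 10.87, 10.73, 10.86 and 10.83 in controls and 10.32, 10.25, 10.46, 10.27 and 10.64 in mutants. The controls spanned a narrow range and all mutants lay below it, with a difference of -0.44 (SE 0.08, adjusted p = 0.00861). Mrpl12, part of the stalk that recruits translation factors, fell by 0.58 (SE 0.11, adjusted p = 0.0116), and its partner in the stalk, Mrpl10, fell by 0.42 (SE 0.09, adjusted p = 0.0158). Mrpl27, whose bacterial counterpart reaches toward the peptidyl transferase centre, fell by 0.60 (SE 0.16, adjusted p = 0.0321) in the full set, but mutant replicate 5 overlapped the controls and the call was lost in 9 of the 10 fits without 1 array (adjusted p up to 0.0711). Mrpl36, a zinc-binding protein of the large subunit, fell by 0.65 (SE 0.12, adjusted p = 0.00988), and Mrpl38 of the central protuberance fell by 0.40 (SE 0.08, adjusted p = 0.0115) on the first of its 2 probe sets. The other probe set of Mrpl38 differed by -0.22 without passing. Adjusted over all probe sets, the limma p was 0.0138 for the first probe set of Mrpl38 and 0.470 for the other.

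Other large subunit members have roles beyond the core. Mrpl58, which releases stalled peptides and was once known as Ict1, fell by 0.44 (SE 0.10, adjusted p = 0.0204). Mrpl45, which holds the ribosome at the inner membrane, fell by 0.67 (SE 0.17, adjusted p = 0.0286), a call kept in 2 of the 10 fits without 1 array (adjusted p up to 0.0637). Mrpl44, which carries a fold related to the RNase III family to which DICER1 also belongs, differed by -0.25 (SE 0.11, adjusted p = 0.132) and did not pass. Near the exit of the nascent peptide, Mrpl24 fell by 0.30 (SE 0.07, adjusted p = 0.0194), and Mrpl23 differed by -0.56 (SE 0.18, adjusted p = 0.0577) without passing.

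Several large differences did not pass because mutant livers varied. Mrpl55 stood at 8.26, 8.41, 8.27, 8.19 and 8.13 in controls and at 7.42, 6.27, 7.74, 6.88 and 8.19 in mutants. Mutant replicate 5 lay among the controls while mutant replicates 2 and 4 were the lowest. The difference of -0.95 (SE 0.31, adjusted p = 0.0576) became -1.18 without mutant replicate 5 (adjusted p = 0.0113). Mrpl23, Mrpl51 and the small subunit gene Mrps34 showed the same arrangement, with differences of -0.56, -0.49 and -0.54, and without mutant replicate 5 their adjusted p were 0.00269, 0.00608 and 0.0211.

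The smallest differences in the large subunit were those of Mrpl22, which lines the exit tunnel, at -0.12 (95% interval -0.38 to 0.14, adjusted p = 0.523), and Mrpl32, whose processing by a protease of the inner membrane is a step of ribosome assembly, at -0.15 (95% interval -0.33 to 0.04, adjusted p = 0.256). For Mrpl22 the mutant values were 9.92, 10.10, 10.34, 9.67 and 10.09 against 10.20, 10.30, 10.07, 9.99 and 10.16 in controls, so the groups overlapped. Both genes were named after their values were seen.

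The small subunit fell by a similar amount. Of its 29 members, 19 fell, 0 rose and 10 did not pass, with a median difference of -0.50. Mrps10, the counterpart of bacterial S10 in the head of the subunit, had the largest change. Its controls were 9.72, 9.75, 9.99, 10.13 and 9.79 and its mutants 8.92, 8.33, 8.89, 8.50 and 9.67. Mutant replicate 5 lay just below the lowest control and the other mutants well below it, and the difference was -1.01 (SE 0.23, adjusted p = 0.0174), a 2.02-fold lower signal. Without mutant replicate 5 it was -1.22.

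Mrps27, a protein with pentatricopeptide repeats that is particular to mitochondrial ribosomes, gave 7.70, 8.11, 8.11, 8.07 and 8.22 in controls and 7.30, 6.47, 7.05, 6.71 and 7.78 in mutants. Control replicate 1 was the lowest control and mutant replicate 5 lay just above it, so the groups overlapped. The difference was -0.98 (SE 0.23, adjusted p = 0.0194).

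The small subunit members with the smallest p were Mrps6, Mrps11, Mrps7, Mrps14, Mrps17 and Mrps18b. Mrps6, at the platform of the subunit, fell by 0.72 (SE 0.12, adjusted p = 0.00749). Mrps7, which nucleates the head in bacterial assembly, stood at 10.41, 10.37, 10.34, 10.29 and 10.40 in controls and at 9.82, 9.64, 9.89, 9.77 and 10.17 in mutants. They differed by -0.50 (SE 0.09, adjusted p = 0.00892). Its controls hardly varied, and every mutant was below them. Mrps14 and Mrps17, both with bacterial counterparts, fell. The fall was 0.77 (SE 0.14, adjusted p = 0.00905) for Mrps14 and 0.78 (SE 0.16, adjusted p = 0.0124) for Mrps17. Dimmer probe sets of Mrps14 differed by -0.32 and -0.25 without passing (limma p adjusted over all probe sets, 0.206 and 0.340). Mrps16, a gene in which mutations cause a human mitochondrial disease, fell by 0.81 (SE 0.18, adjusted p = 0.0165).

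The Mrps18 genes are 3 relatives of bacterial S18. Mrps18b fell by 0.47 (SE 0.10, adjusted p = 0.0156) and Mrps18c by 0.50 (SE 0.13, adjusted p = 0.0297), the latter in only 2 of the 10 fits without 1 array (adjusted p up to 0.0700), and Mrps18a differed by -0.33 (SE 0.10, adjusted p = 0.0534) without passing. Ribosome structures place the products of Mrps18a and Mrps30 in the large subunit despite their names. Mrps30 differed by -0.23 (SE 0.08, adjusted p = 0.0664). Mrpl44, Mrps18a and Mrps30 were named for their roles after values were seen.

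**Figure D2:**
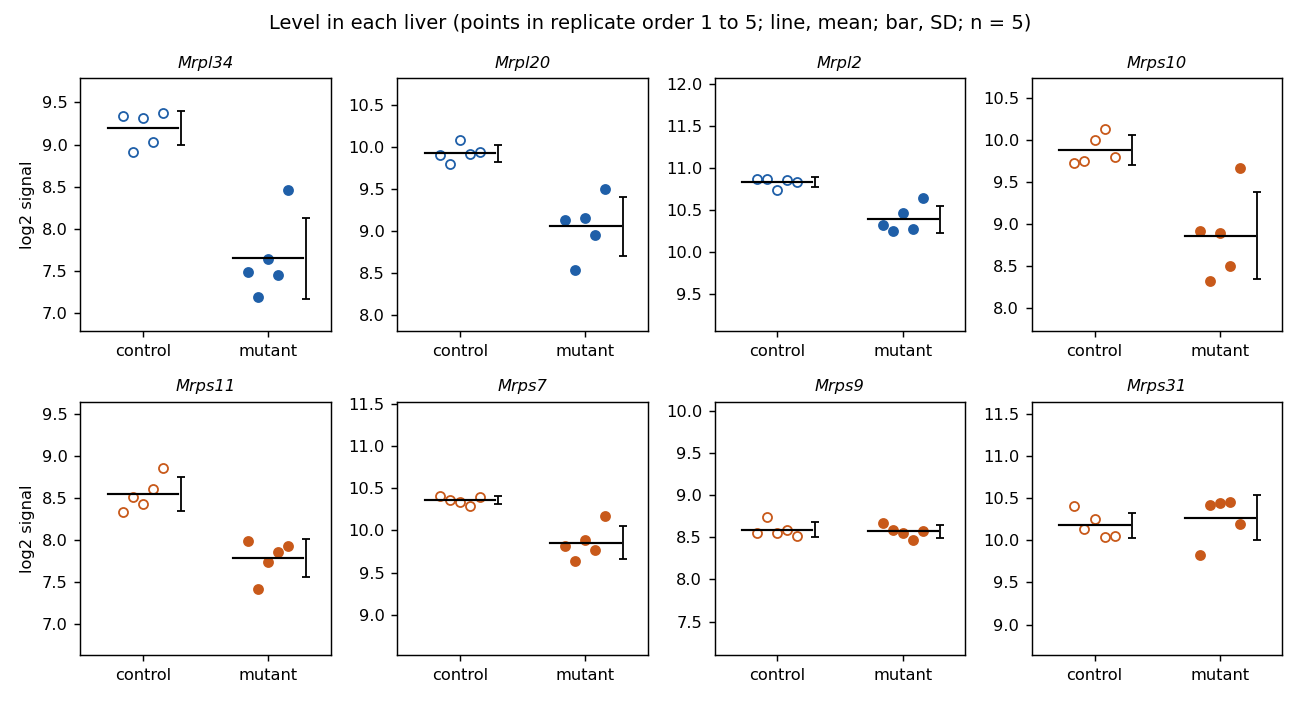
Log2 signal of 8 members in each liver (vertical axis; open points control, filled points mutant, in replicate order 1 to 5 from left to right; line, mean; bar, SD; each panel spans the same number of log2 units). In Mrpl34, Mrpl20, Mrpl2, Mrps10, Mrps11 and Mrps7 all mutants lie below all controls, with mutant replicate 5 the highest mutant in each of these but Mrps11, and in Mrps9 and Mrps31 the groups overlap.

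A few small subunit members did not share the fall. Mrps9, the counterpart of bacterial S9 whose tail reaches the site of the peptidyl tRNA, stood at 8.55, 8.74, 8.56, 8.59 and 8.51 in controls and at 8.67, 8.59, 8.54, 8.47 and 8.58 in mutants. The groups overlapped throughout, with a difference of -0.02 (95% interval -0.15 to 0.11, adjusted p = 0.875), and its sign turned with the scaling: it was 0.0073 after quantile normalization and 0.0097 after subtraction of the 75th percentile. All 4 probe sets of Mrps9 gave differences between -0.04 and 0.14, none of them called. Mrps31 stood at 10.41, 10.14, 10.25, 10.04 and 10.05 in controls and at 9.83, 10.42, 10.44, 10.45 and 10.20 in mutants. Mutant replicate 1 was the lowest array and mutant replicates 2, 3 and 4 the highest, and the difference was 0.09 (95% interval -0.20 to 0.38, adjusted p = 0.680). Mrps36, now known as a part of the 2-oxoglutarate dehydrogenase complex of the citric acid cycle and not of the ribosome, stood at 8.63, 8.78, 8.73, 8.70 and 8.70 in controls and at 8.87, 8.70, 9.03, 8.69 and 8.75 in mutants, a difference of 0.10 (95% interval -0.06 to 0.26, adjusted p = 0.370). These 3 genes were named after their values were seen.

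The small subunit had the lower median, but the order of the subunits varied between animals. The median difference was -0.40 for the large and -0.50 for the small subunit, and 53.2% and 65.5% of their members fell. Within each array, the median deviation of the large subunit members from the control mean minus that of the small subunit ranged from -0.01 to 0.04 in controls and from -0.04 to 0.13 in mutants. Mutant replicates 2, 3 and 5 lay above the highest control on this measure and mutant replicate 1 lay below the lowest. The large minus small difference of 0.09 dropped to 0.026 without mutant replicate 2, to 0.043 without control replicate 1 and to 0.056 without control replicate 4. Whether the subunits differ was not tested. The counts for the subunits varied with single arrays, as did the share of all genes called lower (6.18% to 17.5%). In the large subunit 41 members fell when mutant replicate 5 was left out, and 15 when control replicate 3 or mutant replicate 4 was. In the small subunit 10 fell when control replicate 4 or mutant replicate 2 was left out, 11 when it was control replicate 3 or mutant replicate 4, and 12 when it was replicate 1 of either group. With Mrps30 and Mrps18a moved to the large subunit and Mrps36 left out, an assignment made from general knowledge of ribosome structures, 25 of 49 large subunit and 19 of 26 small subunit members fell.

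The members were also divided by evolutionary origin, a division written from general knowledge of ribosomal protein families after the values were seen, and not from a file. Of 44 members classed as having a bacterial counterpart, 28 fell, with a median of -0.47. Of 31 classed as having none, 16 fell, with a median of -0.40. Mrps18a and Mrps18b were put in this second class although they are relatives of bacterial S18, so the counts depend on how such genes are classed. The division was uneven in the small subunit, where 14 of 16 members classed with a bacterial counterpart fell. Of those classed without one, 5 of 10 fell, and Mrps18b is among the 5. In the large subunit of that assignment the counts were 14 of 28 and 11 of 21. No test was made of these counts.

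The per-animal view shows how far each liver moved. The median deviation from the control mean over the large subunit members was -0.48, -0.59, -0.37, -0.59 and -0.08 in mutant replicates 1 to 5, and over the small subunit it was -0.44, -0.72, -0.42, -0.59 and -0.14. In controls it stayed between -0.06 and 0.06 for the large and between -0.04 and 0.02 for the small subunit. All 5 mutants lay below the controls on both measures, with mutant replicate 5 nearest to them. Over all genes the median deviation was between -0.04 and 0.03 on every array.

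**Figure D3:**
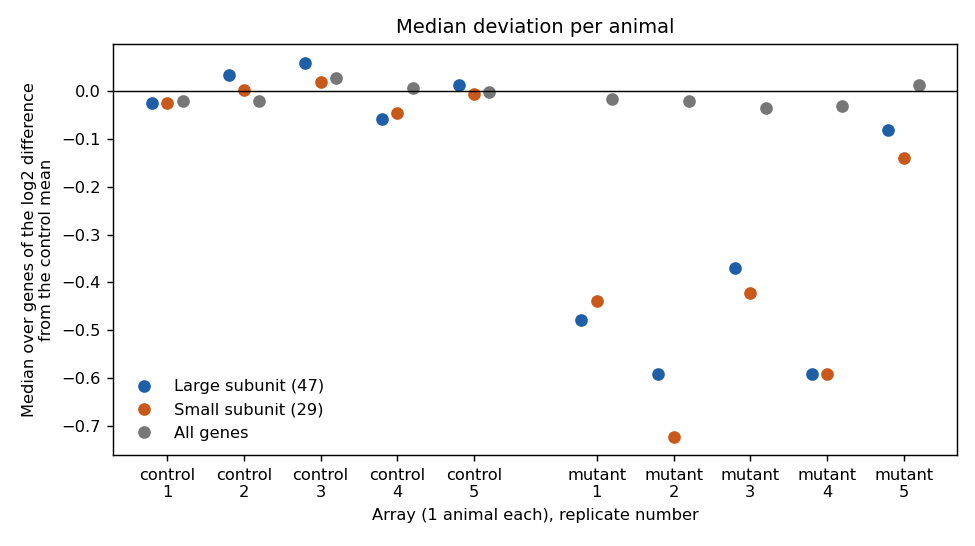
Median over genes of the log2 difference from the control mean (vertical axis) on each of the 10 arrays (horizontal axis), for the large subunit, the small subunit and all genes. Mutant replicates 1 to 4 lie between -0.72 and -0.37 for both subunits, mutant replicate 5 lies at -0.08 and -0.14, and the values for all genes stay near 0.

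Mutant replicate 5 was the highest mutant for 60 of the 76 members and the lowest for 0. Mutant replicate 2 was the lowest for 37 members, mutant replicate 4 for 27, mutant replicate 1 for 11 and mutant replicate 3 for 1. In 58 members all of mutant replicates 1 to 4 lay below the lowest control, against 16.1% of all genes. For 41 members mutant replicate 5 did not lie below the lowest control. Apart from the 16.1%, the share of all genes with these orders was not computed, so the counts are not shown to be particular to the members. Mutant replicate 5 also lay between the groups on component 1 over all genes. The median member deviated by -0.51 in the mean of mutants 1 to 4 and by -0.10 in mutant replicate 5.

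**Figure D4:**
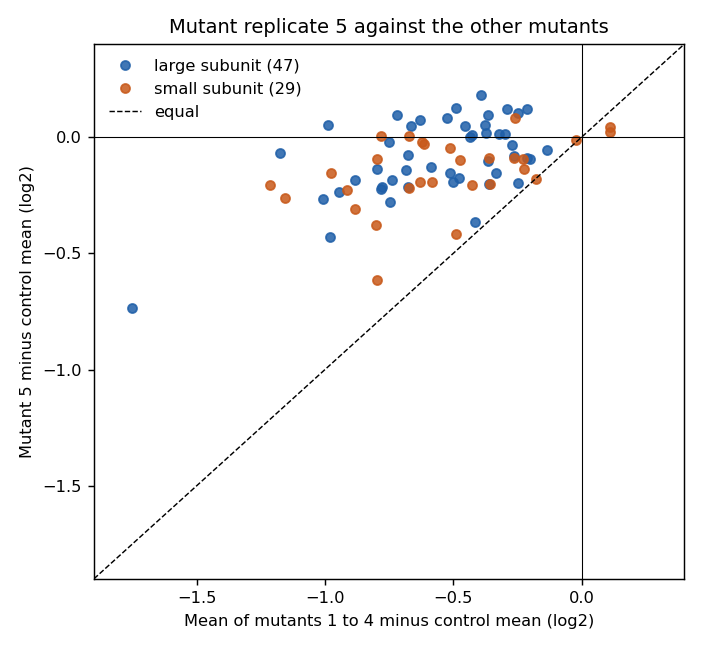
Deviation of mutant replicate 5 from the control mean (log2, vertical axis) against the mean deviation of mutant replicates 1 to 4 (log2, horizontal axis), 1 point for each of 76 members; the dashed line marks equal values. Most points lie above the dashed line and near 0 on the vertical axis, and Mrpl34 lies farthest down on both axes.

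A pair of neighbouring members did not give the same call. Mrpl46 and Mrps11 lie head to head on chromosome 7, on the minus and plus strands, and their annotated starts are separated by 41 bases at chr7:78783090-78783130 (GRCm38.p6). The bases between the starts, which are shown because both genes are transcribed away from them, read as follows on the plus strand.

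Mrpl46/Mrps11: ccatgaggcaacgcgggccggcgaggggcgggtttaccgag

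Mrps11, whose bacterial counterpart sits beside the messenger RNA exit, was at 8.33, 8.51, 8.43, 8.60 and 8.86 in controls and at 7.99, 7.42, 7.74, 7.86 and 7.93 in mutants. The groups differed by -0.76 (SE 0.13, adjusted p = 0.00820). All mutants lay below all controls, and mutant replicate 5 was within the range of the other mutants here. Mrpl46, of the central protuberance, was at 8.82, 8.73, 8.95, 8.61 and 8.88 in controls and at 8.59, 8.42, 8.79, 8.31 and 8.76 in mutants. It differed by -0.22 (SE 0.11, adjusted p = 0.173). Its groups overlapped. Whether the 2 differences are unequal was not tested, and the pair was named after its values were seen.

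Other probe sets of the members were read separately. Of the 76 members, 33 had more than 1 probe set, which gave 56 further probe sets. Where these were well measured, with a mean no lower than the median gene, 28 of 29 were lower in mutants and 12 were called lower, with a median difference of -0.40. Among the 27 dimmer ones, 19 were lower and 3 were called, with a median of -0.05. None of the 56 was called higher. Of all genes, 11.5% were called lower, and the share over all probe sets was not computed. With p from limma adjusted over all probe sets, Mrpl39 did not pass on its main probe set (-0.29, adjusted p = 0.112). It was called on the other (-0.40, adjusted p = 0.0426). Mrpl50 differed by -0.18 on the first and 0.08 on the other, without a call on either.

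Mitochondrial ribosomal protein genes are short. The median genomic span was 7690.5 bases for the members and 23814 bases for all genes. Of all genes with a span at or under that of the median member, 19.9% were called lower, against 11.5% of all genes. Among those that were also no dimmer than the median gene, as 75 of the 76 members were, the share was 31.8% and the median difference was -0.22. Across the 76 members, the difference and the genomic span had a Spearman correlation of 0.33, and the difference and the mean level a Pearson correlation of 0.18; the genes share the same 10 arrays, and these values are descriptions. The part of gene length in the result was not tested.

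Of 4 measured ribosomal proteins with other names, Chchd1 fell by 0.68 (SE 0.17, adjusted p = 0.0256) and Ptcd3 by 0.44 (SE 0.12, adjusted p = 0.0286), and Dap3 (-0.01) and Gadd45gip1 (-0.03) did not pass. Neither Chchd1 nor Ptcd3 was called without control replicate 3 or mutant replicate 4, and 1 of them was called without control replicates 1, 4 or 5 or mutant replicates 1 or 2 (adjusted p up to 0.0602 and 0.0667).

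Of 17 translation factors of the mitochondrion, 8 fell (47.1%, against 11.5% of all genes) and 0 rose. Their median was -0.32, and all 17 had lower means in mutants. Mrrf, the ribosome recycling factor, fell by 0.41 (SE 0.09, adjusted p = 0.0180), the initiation factor gene Mtif2 by 0.47 (SE 0.11, adjusted p = 0.0209), and Pdf, which removes the formyl group from new peptides, by 0.42 (SE 0.11, adjusted p = 0.0246). No factor was higher at an unadjusted p under 0.05 by limma. The count called lower was 3 to 5 without any single control or mutant replicate 1, 2 or 4, 9 without mutant replicate 5, and the calls of Mtif2 and Pdf were among those lost (adjusted p up to 0.05004 and 0.0568).

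Of 46 factors for assembly of the ribosome and for processing of mitochondrial RNA, 20 fell and 0 rose, with a median of -0.42. The share called lower was 43.5%, against 11.5% of all genes. Trit1, a tRNA-modifying enzyme, fell by 0.82 (SE 0.14, adjusted p = 0.00764), Supv3l1, an RNA helicase of mitochondrial RNA turnover, by 0.49 (SE 0.09, adjusted p = 0.00911), and Fastkd5, which is needed to process mitochondrial transcripts, by 0.66 (SE 0.13, adjusted p = 0.0115). In this list 0 were higher at an unadjusted p under 0.05 by limma. The count called lower was 12 or 13 when control replicate 3, control replicate 4, mutant replicate 1 or mutant replicate 4 was left out, and 29 when mutant replicate 5 was.

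Of 16 aminoacyl-tRNA synthetases of the mitochondrion, 3 fell and 0 rose (1 was higher at an unadjusted p under 0.05 by limma), with a median of -0.16. The share called lower was 18.75%, against 11.5% of all genes. Those that fell were Fars2 at -0.54 (SE 0.11, adjusted p = 0.0115), Hars2 at -0.72 (SE 0.17, adjusted p = 0.0195) and Yars2 at -0.44 (SE 0.12, adjusted p = 0.0299), which charge tRNAs with phenylalanine, histidine and tyrosine. Of 15 genes for transcription and replication of mitochondrial DNA, 5 fell (33.3%) and 1 rose, with a median of -0.40. Of all genes, 11.5% were called lower and 8.62% higher. In this list Polg, the catalytic subunit of the DNA polymerase, fell by 0.44 (SE 0.10, adjusted p = 0.0177), Tfam, which packages the genome and starts transcription, by 0.65 (SE 0.16, adjusted p = 0.0226), and Primpol, a primase, by 0.71 (SE 0.21, adjusted p = 0.0443). Rrm2b, a ribonucleotide reductase subunit induced by p53, rose by 1.12 (SE 0.22, adjusted p = 0.0115). Without mutant replicate 5 the counts called lower were 5 and 9, with 1 synthetase called higher, and without any other array the second count was 1 to 3. The calls of Yars2, Tfam and Primpol were lost in some of these fits (adjusted p up to 0.0698, 0.0540 and 0.0981). Whether these lists differ from the ribosomal proteins was not tested.

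**Figure D5:**
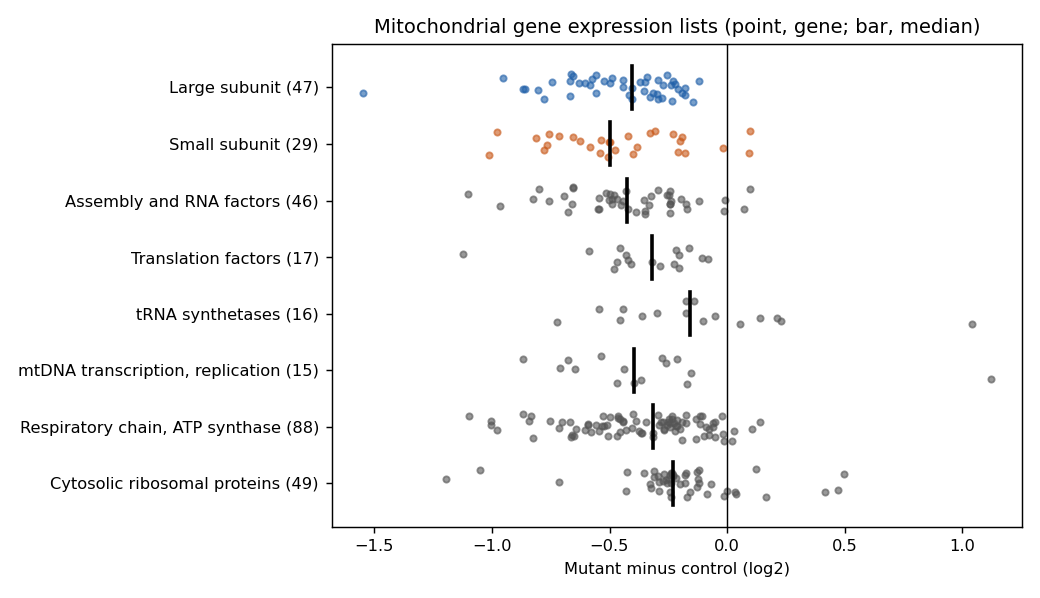
Difference between mutant and control (log2, horizontal axis) for each gene (points) of the 2 subunits and of 6 other gene lists, with the number of genes in parentheses and the median as a black bar. The medians run from -0.50 for the small subunit to -0.16 for the tRNA synthetases.

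No hepatocyte marker was called with all 10 arrays, and markers of some other cells were higher in mutants. In whole liver, fewer cells of a type and less RNA per cell cannot be told apart. Of 12 hepatocyte markers 0 were called (2 lower and 0 higher at an unadjusted p under 0.05 by limma), and their mean log2 level was 14.78 to 15.00 in controls and 14.69 to 14.89 in mutants. Without mutant replicate 5, 1 of the 12 was called lower, Asgr1 (-0.32, adjusted p = 0.0277 by limma). Several hepatocyte markers lay near the highest value on the arrays, 16.65, with control means of 16.44 for Apoa1, 16.31 for Ttr and 16.20 for Alb. Others lay lower, such as Hnf4a at 11.93. Whether a moderate loss would show near the top of the range was not tested. Of 13 macrophage markers 8 rose and 0 fell, with mean levels of 8.93 to 9.83 and 9.79 to 10.10, and of 11 stellate cell and matrix genes 6 rose and 0 fell, with mean levels of 9.56 to 9.87 and 9.996 to 10.55. In both lists 0 were lower at an unadjusted p under 0.05 by limma. Of all genes, 8.62% were called higher and 11.5% lower. The macrophage count was 3 to 5 when mutant replicate 1, 2 or 4 or control replicate 1, 4 or 5 was left out, and the stellate count 3 without mutant replicate 4. Without mutant replicate 5 the macrophage count was 6 and the stellate count 8. None of the genes in these 3 lists had both group means under 3.60, the 25th percentile of all values. Of 6 biliary genes 1 rose, Prom1, a membrane glycoprotein of bile duct and progenitor cells, by 4.03 (SE 0.81, adjusted p = 0.0128). Control livers averaged 5.63 ± 1.62 (SD, n = 5) for Prom1 and mutant livers 9.65 ± 1.14 (SD, n = 5), and the groups did not overlap. Of 8 endothelial genes Lyve1 fell by 0.95 (SE 0.21, adjusted p = 0.0175), and of 5 lymphocyte genes Ptprc, the leukocyte antigen CD45, rose by 0.75 (SE 0.22, adjusted p = 0.0411), a call lost in some fits without 1 array (adjusted p up to 0.0925). Both group means were under 3.60 for 2 of the biliary, 2 of the lymphocyte and 1 of the erythroid genes. Of 4 erythroid and 13 cell cycle genes 0 were called in either direction (1 cell cycle gene was lower at an unadjusted p under 0.05 by limma). Without mutant replicate 5, the cell cycle gene Rrm2 was called lower (-0.89, adjusted p = 0.0199 by limma), and so were 2 endothelial genes. The part of these cells in the fall of the ribosomal protein genes was not tested.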

How the data were processed

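RNA of 10 livers was read on Affymetrix mouse arrays after amplification and biotin labelling, per the labels' protocols. The authors deposited 1 table of log2 values for 25995 probe sets, with medians close to each other. The log base was read from the range (0.27 to 16.7), and the steps of background correction, summary and normalization are, like the log base, not given in the labels or the file used here. Array medians ran from 6.41 to 6.68, 0 pairs of arrays were identical, and precision is limited by the 5 arrays in each group. After 37 control probe sets were left out, 21613 had 1 gene symbol, 638 several and 3707 none in the platform annotation. The probe set with the highest mean stood for each of 12366 genes. Differences were tested by two-sided moderated tests in limma 3.58.1 (lmFit, then eBayes; R 4.3.3) and p-values were adjusted by the Benjamini-Hochberg method over all genes, or over all probe sets where several probe sets are compared. The tests set the group difference against the spread between livers within groups and treat the livers as independent. Nothing in the labels says how animals were related, so that could not be checked.

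The members, the lists and the rule for named genes were chosen with earlier results of these data known. The rule took, in each subunit and direction, the 6 called members with the smallest p and the 4 with the largest difference, the 3 highest and lowest in mean, the 4 largest uncalled differences and up to 3 called genes of each list. Other members are named for their role or, where stated, after their values were seen. Scaling, filters, probe set rules, variance models, array weights, a block and single arrays were varied. Sequences came from RefSeq tables on GRCm38.p6. Probe sets of the _x_at and _s_at kind can bind related transcripts; 1 member was read by an _x_at and 7 by an _s_at probe set.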

Additional observations from a re-analysis of the deposited data

Results flagged for a closer look

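For 2 of the 66 groups of 5 arrays examined, 1 array stood apart from the other 4 by Dixon's test at the 95% level, where chance gives about 1 in 20. Control replicate 5 was low for Mrpl12, at 11.92 against 12.08 to 12.11 in the other controls. Control replicate 1 was low for Mrps27, at 7.70 against 8.07 to 8.22.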

How the results depend on the processing

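Under every scaling, filter, probe set rule, variance model and array left out, 0 members were called higher, and the medians of both subunits stayed below 0, from -0.49 to -0.36 for the large and from -0.58 to -0.39 for the small subunit over the fits without 1 array. The count called lower ran from 26 to 63 in those fits (15 to 41 for the large and 10 to 22 for the small subunit). It was 32 where genes with more than 1 probe set were read by the second, when 8.56% of all genes were called lower. The 43 members with 1 probe set kept their main values in that fit, and 25 of these were called lower in the main fit. The large minus small median difference ran from 0.026 to 0.096. The replicate numbers do not mark known pairs: same-numbered arrays correlated between -0.18 and 0.09 in their deviations from the group means. With the replicate block, 31 members were lower, 12 of them in the small subunit, when 9.03% of all genes were called lower. Among members named by rule or after their values were seen, signs turned only for 2 uncalled ones: Mrpl50 on its second probe set (0.080), and Mrps9 after quantile normalization (0.0073), subtraction of the 75th percentile (0.0097), averaging of its probe sets (0.014) and, over fits without 1 array, within -0.044 to 0.019. Over the same members, 606 combinations of gene and setting kept direction and call, 17 lost and 21 gained a call, and 6 turned. Fewer arrays also gave fewer calls among all genes, 6.18% to 8.32% lower, except 17.5% without mutant replicate 5. Subunits assigned from general knowledge of ribosome structures were an alternative chosen after seeing the data, with medians of -0.40 and -0.50. Only 5 arrays in each group limit what can be called.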

Other observations

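The respiratory chain and ATP synthase, whose core subunits are the only products of the mitochondrial ribosome, also have many subunits encoded in the nucleus. Of 88 genes matched by prefix, which include 12 assembly factors, 51 fell and 0 rose (1 was higher at an unadjusted p under 0.05 by limma), with a median difference of -0.31. The share called lower was 58.0%, against 11.5% of all genes. The count called lower was 29 to 33 when mutant replicate 2 or 4 or control replicate 2 or 3 was left out. It was 61, with 1 called higher, when mutant replicate 5 was. Sdhd, a membrane anchor of complex II, fell by 0.67 (SE 0.10, adjusted p = 0.00657), the complex I assembly factor Ndufaf2 by 0.87 (SE 0.14, adjusted p = 0.00719), and the complex III subunit Uqcrq by 0.66 (SE 0.11, adjusted p = 0.00764). The assembly factors had a median of -0.66, with 8 of 12 called lower, and the 76 subunits a median of -0.29. Other subunits gave small differences without a call, among them Atp5a1 (-0.02, adjusted p = 0.906), Sdha (-0.08, adjusted p = 0.427) and Uqcrc2 (0.11, adjusted p = 0.236), which were named after their values were seen.

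In the cytosolic ribosome, of 49 genes with symbols Rpl or Rps and a digit, 26 fell and 0 rose (1 was higher at an unadjusted p under 0.05 by limma), with a median of -0.23. The share called lower was 53.1%, against 11.5% of all genes. The prefix also takes 5 genes for kinases and a binding protein, without which 25 of 44 fell. Rpl8 fell by 0.42 (SE 0.05, adjusted p = 0.00308), Rpl22 by 0.27 (SE 0.04, adjusted p = 0.00734) and Rpl41 by 0.26 (SE 0.04, adjusted p = 0.00734). Mutant replicate 5 was the highest mutant for these 3 genes, while over the 49 genes the median deviation from the control mean was -0.18 in it and -0.26 to -0.14 in the others.

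Of 19 regulators of nuclear genes for mitochondrial proteins, 2 fell (10.5%) and 3 rose. Of all genes, 11.5% were called lower and 8.62% higher, so the share of regulators that fell was near that of all genes. Atf5, a transcription factor of the mitochondrial stress response, fell by 1.10 (SE 0.16, adjusted p = 0.00645), and Tfam has been given above. Myc rose by 1.86 (SE 0.46, adjusted p = 0.0237), the GABP subunit gene Gabpb2 by 0.38 (SE 0.10, adjusted p = 0.0261), and Nrip1, a corepressor of nuclear receptors, by 0.28 (SE 0.08, adjusted p = 0.0371); 0 of these 3 were called without control replicate 2 or mutant replicate 2, and 1 was without replicate 3 of either group (adjusted p up to 0.0566, 0.0568 and 0.0835). Nrf1 differed by -0.27 (adjusted p = 0.314), Gabpa by -0.17 (adjusted p = 0.135), Yy1 by -0.07 (adjusted p = 0.692) and Ppargc1a by 0.59 (adjusted p = 0.312), none of which passed. Nrf1 was dim, with means of 4.21 in controls and 3.94 in mutants, near the 25th percentile of all values (3.60).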
